A study of Mus musculus with 8 samples.

Results

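The heat shock chaperones of the cytosol and mitochondria were compared between livers of Mtap heterozygous and wild-type mice. A list of 44 gene symbols defined the set, and 42 of them were represented by at least 1 probe set whose annotation gives exactly 1 symbol, out of 18193 genes represented in this way. The 42 genes had 104 probe sets among 45037, and each gene was represented by its brightest probe set (largest mean of the 8 signals). Hsp90ab1 and Hsf1 were not analysed here. The set also holds Hsf2, a transcription factor, and Serpinh1, a collagen chaperone that works in the endoplasmic reticulum.

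Liver RNA came from 8 male C57BL/6 mice aged 92 to 101 days. The groups were MTAP+/- (4 mice, called heterozygous here) and MTAP+/+ (4 mice, called wild-type), with no treatment named, and each liver was hybridised to its own Affymetrix array. Mtap encodes methylthioadenosine phosphorylase, an enzyme of methionine salvage. The nature of the Mtap allele, the litters and the times of collection are not given here, so the p-values measure the spread between these 8 livers. Signals are log2 units after RMA, a background correction, normalisation and summary per probe set. Differences are heterozygous minus wild-type. In whole liver, fewer cells of a type and less RNA per cell cannot be told apart.

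Heat shock proteins hold other proteins in a foldable state and refold or hand on those that misfold. HSP70 proteins bind short unfolded stretches in cycles of ATP hydrolysis. J-domain proteins bring clients to HSP70 and start hydrolysis, and nucleotide exchange factors such as the HSP110 and BAG proteins end the cycle. HSP90 then acts on clients close to their final shape, helped by its own co-chaperones. In mitochondria the HSP70 Hspa9 and the chaperonin of Hspd1 and Hspe1 fold imported proteins. Heat and other stress activate heat shock factors, which bind inverted repeats of the letters GAA in promoters (the heat shock element). In liver several of these genes are known to vary with the time of day, as body temperature does.

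The labels were checked on the target and the tissue. Mtap was at 57.6% of the wild-type signal in heterozygous liver (log2 change -0.80 ± 0.10, SE; limma, adjusted p = 0.0281), and all 4 of its probe sets were lower without overlap of the groups, at 57.6, 49.9, 32.2 and 35.3% of wild-type. The change was -1.23 with these averaged. It was -1.50 without the probe sets marked _a_at, _s_at or _x_at, which can bind several transcripts of the same or other genes. The Mtap call was lost under 8 of 16 alternatives, with adjusted p-values up to 0.121. The 5 measured hepatocyte markers averaged between 13.98 and 14.13 in every liver, near the top of the scale. Array medians ranged from 3.92 to 3.98. The first principal component (28.3% of the variance) mixed the genotypes, while the second (22.0%) parted them, with -44.12 to -4.03 in heterozygous and 11.25 to 29.47 in wild-type livers. Heterozygous replicate 2 was farthest out on that axis. Its 3' minus 5' control signal, a measure of RNA integrity and labelling, was the lowest (0.713, the others 0.880 to 1.12).

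None of the 42 chaperone genes passed the adjusted threshold of 0.05, but 9 were lower in heterozygous liver at an unadjusted p under 0.05 and 0 were higher. Over all 18193 genes limma called 9 (0.0495%) at the adjusted threshold, 0.0220% lower and 0.0275% higher. At an unadjusted p under 0.05 it listed 9.14% of all genes, 4.74% as lower and 4.40% as higher, against 21.4% of the chaperone genes as lower. The 9 were the HSP70 and HSP110 genes Hspa1b, Hspa1a, Hsph1, Hspa8 and Hspa14, the J-domain genes Dnaja4 and Dnajb1, and the HSP90 co-chaperone genes Fkbp4 and Stip1. In 7 of the 42 every heterozygous liver was below every wild-type liver, which held for 2.70% of all genes. The reverse order, heterozygous above wild-type without overlap, held for 0 of the 42 and 1.95% of all genes. Changes were below 0 in 31 of the 42 (73.8%) and in 54.7% of all genes, with medians of -0.15 and -0.02. The members were chosen with earlier results in view, so these shares describe the list.

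**Figure D1:**
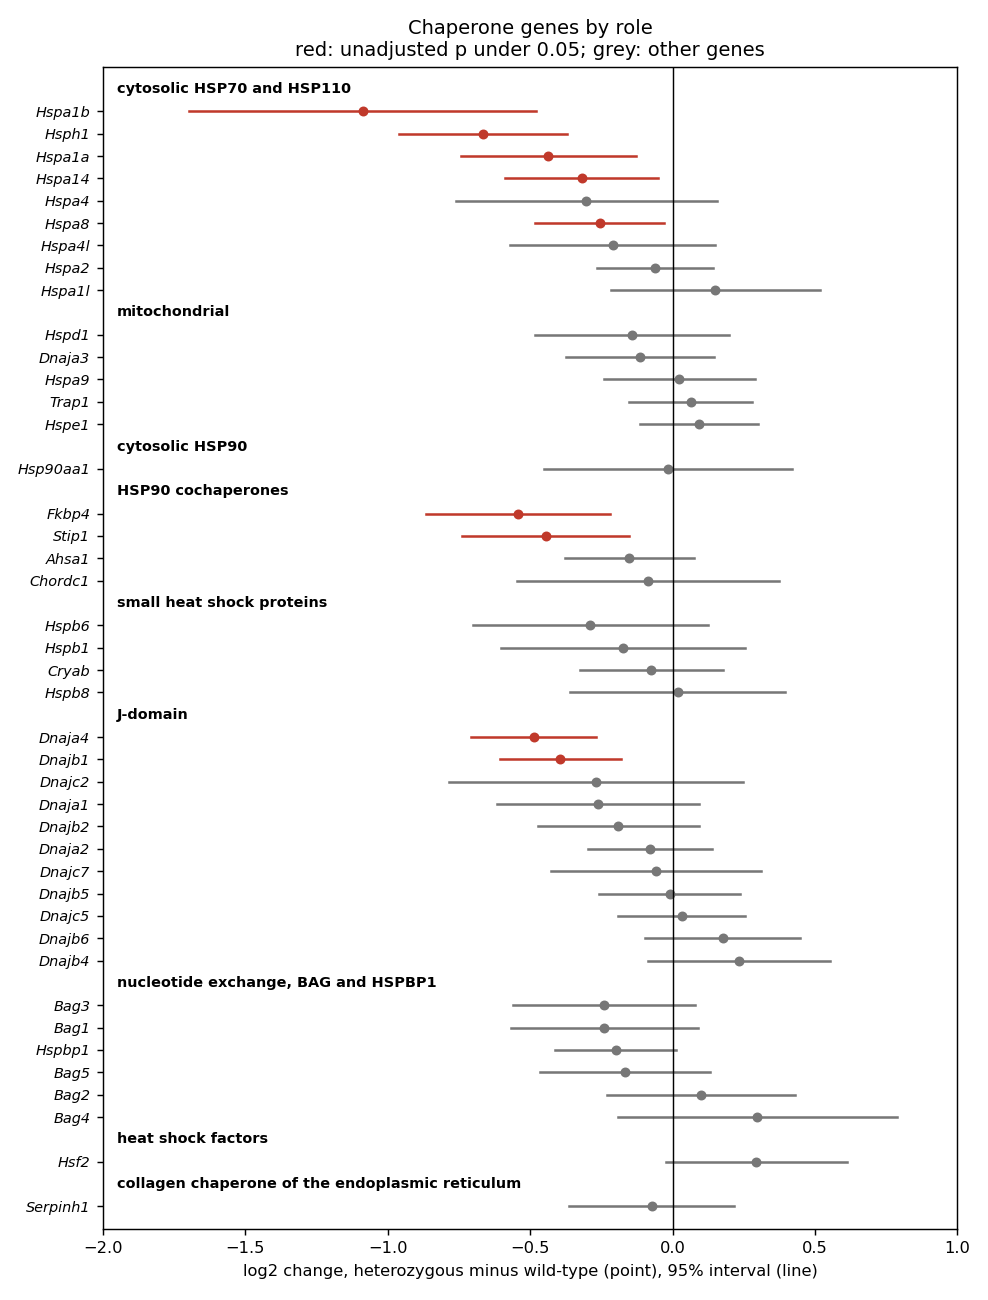
Log2 change of each of the 42 chaperone genes (horizontal axis, heterozygous minus wild-type), in blocks by role, with the 95% interval from limma. The 9 genes in red have an unadjusted p under 0.05 and all lie left of 0, between -1.09 and -0.26, while the 5 mitochondrial genes lie between -0.14 and 0.09.

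Hspa1b, a stress-induced cytosolic HSP70, had the largest difference of the 42 genes. It read 8.23, 7.21, 8.31 and 7.88 in heterozygous replicates 1 to 4 and 8.76, 8.40, 9.36 and 9.45 in wild-type replicates 1 to 4. Every heterozygous liver lay below every wild-type liver, by 0.10 at the narrowest, and wild-type replicates 3 and 4 were well above the rest. The log2 change was -1.09 ± 0.28 (SE), or 47.0% of the wild-type signal (95% interval 30.8 to 71.8%), with a limma adjusted p of 0.265 and an exact permutation p of 0.0286, the smallest that 4 against 4 allows. The other Hspa1b probe sets were at -1.26 and -1.37, also without overlap (limma adjusted p over all probe sets 0.196 and 0.127). Leaving out 1 array at a time gave changes from -1.28 to -0.86.

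Hspa1a encodes a nearly identical protein from the neighbouring copy. Its sole probe set was dim, with 3.01, 2.59, 2.88 and 2.82 in heterozygous and 3.16, 2.98, 3.54 and 3.38 in wild-type replicates 1 to 4. Heterozygous replicate 1 was above wild-type replicate 2, so the groups overlapped. The order of the wild-type livers matched that of Hspa1b in its extremes, with replicate 2 lowest and replicates 3 and 4 highest. The change was -0.44 ± 0.14 (SE; limma adjusted p = 0.355, exact permutation p = 0.0571). Transcripts of such near-identical copies can bind each other's probes, so the split between Hspa1a and Hspa1b is uncertain.

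Hsph1, an HSP110 protein that releases nucleotide from HSP70, had the smallest p of the list. It read 7.30, 7.71, 7.85 and 7.67 in heterozygous and 8.16, 8.50, 8.20 and 8.33 in wild-type replicates 1 to 4. The groups were apart by 0.31, more than the SD within either (0.23 and 0.15). The change was -0.67 ± 0.13 (SE), or 63.0% of the wild-type signal (95% interval 51.4 to 77.3%; limma adjusted p = 0.168, exact permutation p = 0.0286), and the second probe set was at -0.80.

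Hspa8, the constitutive HSP70, was among the brightest genes on the arrays. It read 11.48, 11.34, 11.68 and 11.54 in heterozygous and 11.71, 11.84, 11.83 and 11.70 in wild-type replicates 1 to 4. The groups were 0.02 apart, so they barely cleared each other. The change was -0.26 ± 0.10 (SE; limma adjusted p = 0.473). A pair of further bright probe sets were at -0.20 and -0.23, each with overlap, and a dim one (mean signal 4.82) at 0.42. Probe sets named by the manufacturer as able to bind several transcripts include all the bright ones, and without them the dim one alone remained, which turned the sign. The average of all its probe sets was at -0.06 (limma adjusted p = 0.921), no longer under an unadjusted p of 0.05. It was also over 0.05 when heterozygous replicate 1 or 2, or wild-type replicate 2 or 3, was left out.

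Hspa14, an HSP70 relative found on ribosomes, read 6.76, 6.88, 7.00 and 7.01 in heterozygous and 7.45, 7.36, 7.07 and 7.05 in wild-type replicates 1 to 4. Wild-type replicates 1 and 2 stood above the other 6 livers, and the groups were separated by 0.04. The change was -0.32 ± 0.12 (SE; limma adjusted p = 0.451). Its other probe sets were at -0.31 and 0.01, the average of all was at -0.21, and its unadjusted p exceeded 0.05 when heterozygous replicate 1 or either of wild-type replicates 1 and 2 was left out. The remaining genes of the family did not reach an unadjusted p of 0.05. The HSP110 relatives Hspa4 and Hspa4l were at -0.30 (95% interval -0.76 to 0.16) and -0.21 (-0.57 to 0.15), and the testis-enriched Hspa2 and Hspa1l at -0.06 and 0.15. Hspa1l lies next to Hspa1a, with starts 547 bases apart on opposite strands, and its signal was dim (2.81 to 3.52). In all, 5 of 9 cytosolic HSP70 and HSP110 genes were lower at an unadjusted p under 0.05, as were 4.74% of all genes.

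**Figure D2:**
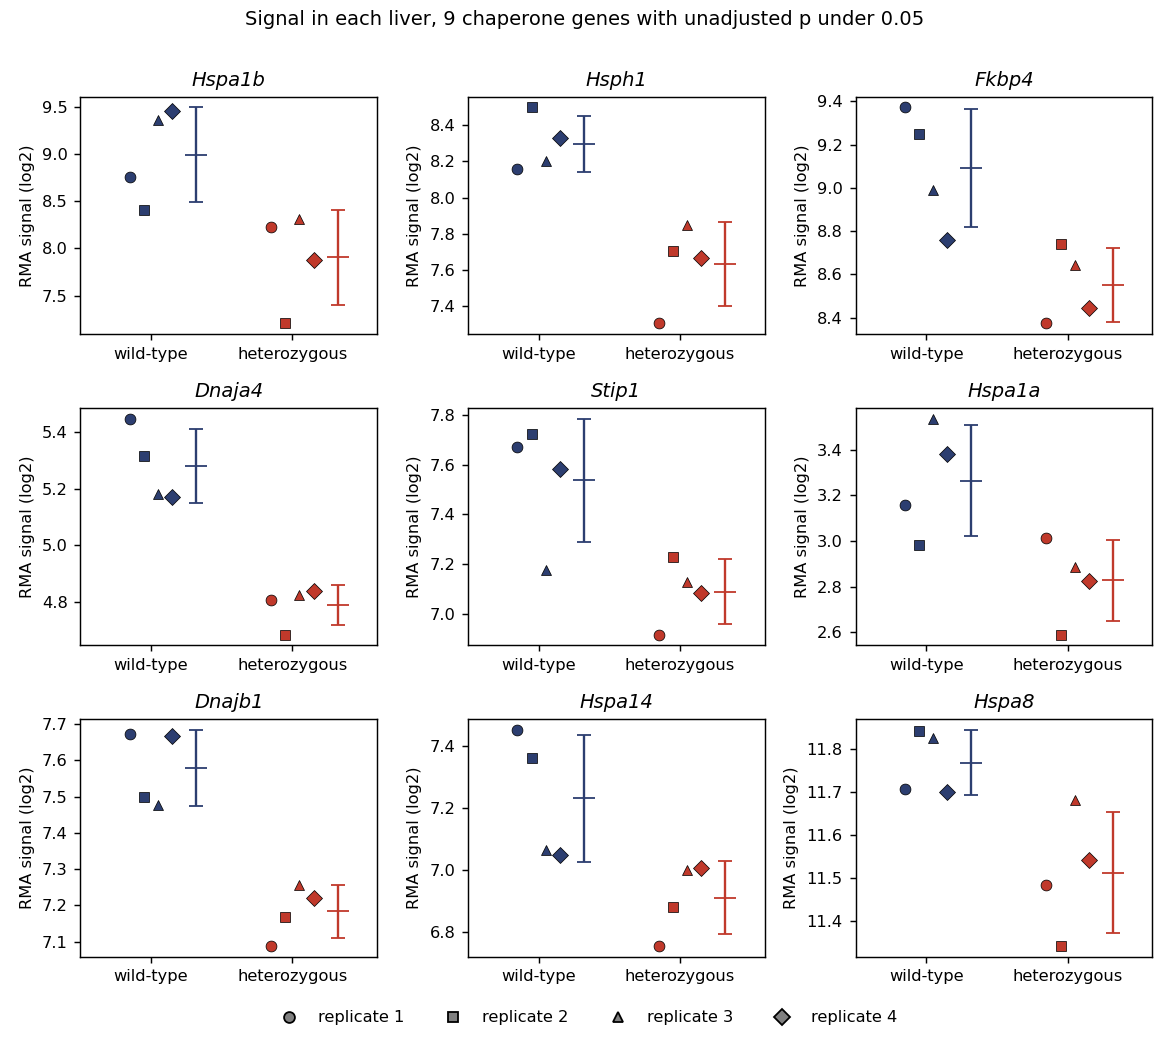
RMA signal (vertical axis, log2) of the 9 chaperone genes with an unadjusted p under 0.05 in each liver; symbols mark the replicate number within a genotype, and bars are mean ± SD (n = 4). The groups do not overlap except for Hspa1a and Stip1, and the wild-type livers differ in order between genes. The vertical axes do not start at 0.

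The start regions of the lower genes and of some that were not are shown because several carry the heat shock element. RefSeq windows (GRCm38.p6) from 250 bases before to 50 after the start were at hand for 35 of the 44 symbols. They were searched for 3 inverted units, GAANNTTCNNGAA or TTCNNGAANNTTC, which are each other's reverse complement, and for a pair of units, GAANNTTC or TTCNNGAA, each its own reverse complement. Every triplet thus contains a pair, and both strands are covered. In the sequences below, written 5' to 3' on the gene's strand, capitals mark the matched letters. The stretches are Hspa1b (chr17:34959239-34959388, minus strand, positions -150 to -1), Hsph1 upstream (chr5:149636336-149636395, minus strand, -80 to -21) and just after the start (chr5:149636279-149636308, minus strand, 8 to 37), Dnaja4 (chr9:54699439-54699538, plus strand, -120 to -21), Fkbp4 (chr6:128438777-128438836, minus strand, -180 to -121), and, of genes outside the 9, Dnajb6 (chr5:29735828-29735887, plus strand, -70 to -11) and Hspe1 (chr1:55088038-55088097, plus strand, -110 to -51).
Hspa1b: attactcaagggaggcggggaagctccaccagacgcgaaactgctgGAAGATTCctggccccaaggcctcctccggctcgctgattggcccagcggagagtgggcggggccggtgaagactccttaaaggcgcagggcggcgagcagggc
Hsph1 upstream: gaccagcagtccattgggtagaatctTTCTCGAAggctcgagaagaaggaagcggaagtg
Hsph1 after the start: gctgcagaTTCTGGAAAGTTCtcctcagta
Dnaja4: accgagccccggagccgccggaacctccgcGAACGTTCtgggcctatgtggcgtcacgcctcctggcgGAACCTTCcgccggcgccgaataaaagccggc
Fkbp4: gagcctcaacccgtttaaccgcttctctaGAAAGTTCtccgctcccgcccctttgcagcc
Dnajb6: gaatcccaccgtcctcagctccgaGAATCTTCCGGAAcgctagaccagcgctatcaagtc
Hspe1: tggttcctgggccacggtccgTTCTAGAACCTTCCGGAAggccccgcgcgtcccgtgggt

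A triplet was found in 5 of the 35 members (14.3%), Hsph1, Hspd1, Hspe1, Dnajb6 and Chordc1, and in 0.662% of 27025 genes with a window. At least a pair was found in 15 of the 35 (42.9%) and in 17.0% of all genes. Genes with and without lower signal both carried matches. Of the 8 lower genes with a window, 1 had a triplet (Hsph1) and 5 a pair (Hspa1a, Hspa1b, Hsph1, Dnaja4 and Fkbp4). Among the other 27, 4 had a triplet and 10 a pair. The Hspd1 and Hspe1 starts that lie 216 bases apart on opposite strands share the same run of units, and these genes were at -0.14 and 0.09. Dnajb6 (0.18 by its brightest probe set, below 0 by its others) and Chordc1 (-0.09) also carry a triplet. The Hspa1a and Hspa1b stretches are equal at 149 of the 150 bases before the start, with the pair at the same distance, from -104 to -97. RefSeq lists a second Hsph1 start close by, whose window holds the same matches. Further starts of Dnaja4, Hspd1, Dnaja1, Dnajb4 and Hspb6 had windows without a match, and a gene was counted if any window matched. The Dnajb1, Stip1 and Hspa14 windows held no match, which says only that these letters are not in those windows. A match is a description of letters, and no binding was measured.

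**Figure D3:**
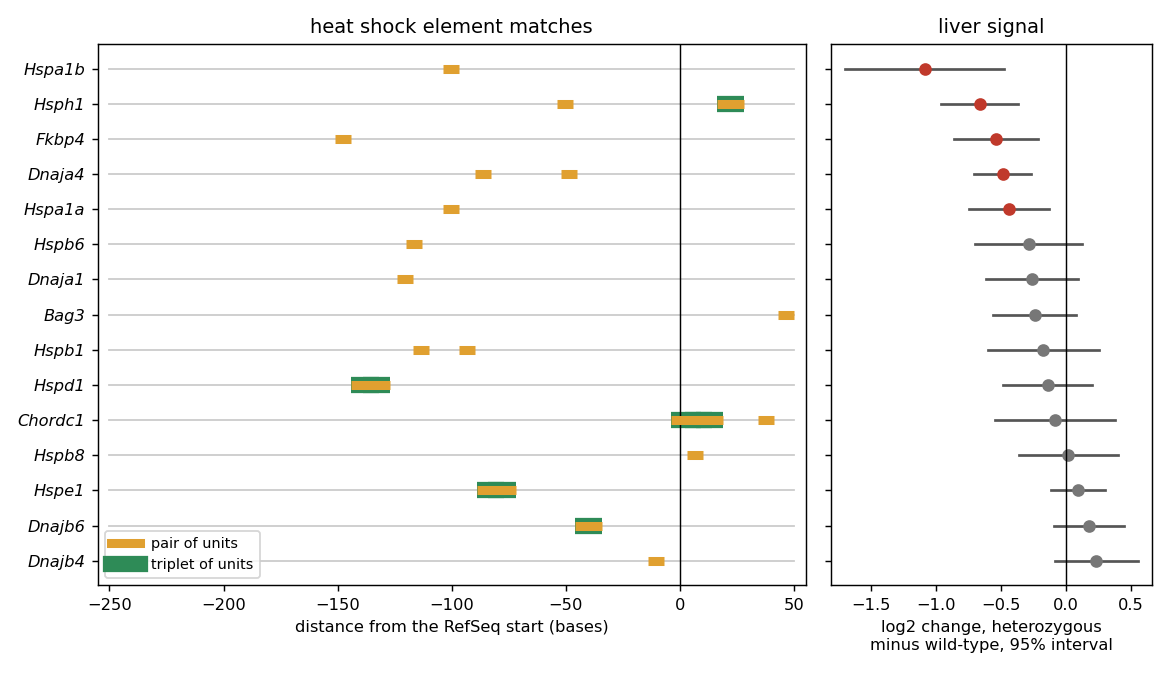
Left, positions of heat shock element matches (bases from the RefSeq start) in the 15 chaperone genes with at least a pair of units, ordered by liver change; right, the log2 change of each gene with its 95% interval (red, unadjusted p under 0.05). Triplets stand at Hsph1 (-0.67) and also at Hspd1, Chordc1, Hspe1 and Dnajb6, whose intervals include 0.

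J-domain genes were divided. Dnaja4, a cytosolic J-domain protein, read 4.81, 4.69, 4.82 and 4.84 in heterozygous and 5.45, 5.32, 5.18 and 5.17 in wild-type replicates 1 to 4. The groups were 0.33 apart, the widest gap among the 9 genes, though the signal lay near the middle of all genes. The change was -0.49 ± 0.10 (SE), or 71.3% of the wild-type signal (95% interval 61.2 to 83.1%; limma adjusted p = 0.174, exact permutation p = 0.0286). Its other probe sets were at -0.42 and -0.19, with overlap.

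Dnajb1, the main stress-induced partner of cytosolic HSP70, read 7.09, 7.17, 7.26 and 7.22 in heterozygous and 7.67, 7.50, 7.48 and 7.67 in wild-type replicates 1 to 4. Both groups were tight (SD 0.07 and 0.11) and did not overlap. The change was -0.40 ± 0.10 (SE), or 76.0% of the wild-type signal (95% interval 65.7 to 88.1%; limma adjusted p = 0.237, exact permutation p = 0.0286), and the second probe set was at -0.27, also without overlap. The other 9 J-domain genes did not reach an unadjusted p of 0.05. Dnaja1 and Dnaja2, general cytosolic partners of HSP70, were at -0.26 and -0.08, and the ribosome-bound Dnajc2 at -0.27. Dnajb2 was at -0.19, Dnajc7, which bridges HSP70 and HSP90, at -0.06, and Dnajb5 at -0.01. Above 0 were Dnajc5, of secretory vesicles (0.03), Dnajb6, a suppressor of protein aggregation (0.18), and Dnajb4 (0.23; 95% interval -0.09 to 0.55). The brightest Dnajb6 probe set disagreed with its dimmer ones, which were at -0.12, -0.10 and -0.22. Further probe sets of Dnajc5 were at -0.18, 0.10, -0.49 and -0.11, and those of Dnajb4 at 0.07 and -0.01.

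Of the HSP90 system, 2 co-chaperone genes were lower while the interval of the measured HSP90 gene included 0. Fkbp4, an immunophilin of steroid receptor complexes, read 8.37, 8.74, 8.64 and 8.44 in heterozygous and 9.37, 9.25, 8.99 and 8.76 in wild-type replicates 1 to 4. Wild-type replicate 4 was 0.02 above heterozygous replicate 2, so separation rested on those livers. The change was -0.54 ± 0.15 (SE), or 68.7% of the wild-type signal (95% interval 54.9 to 85.9%; limma adjusted p = 0.306, exact permutation p = 0.0286). Its other probe sets, with mean signals of 4.27 and 4.14, were at -0.13 and 0.26, and with all probe sets of a gene averaged the change was -0.14.

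Stip1, which links HSP70 to HSP90, read 6.92, 7.23, 7.13 and 7.08 in heterozygous and 7.67, 7.72, 7.18 and 7.58 in wild-type replicates 1 to 4. Wild-type replicate 3 lay among the heterozygous livers and the other wild-type livers stood above them all. The change was -0.45 ± 0.13 (SE; limma adjusted p = 0.336, exact permutation p = 0.0571). Ahsa1, an activator of the HSP90 ATPase, was at -0.15 (95% interval -0.38 to 0.07) and Chordc1, a further HSP90 partner, at -0.09 (-0.55 to 0.37). Hsp90aa1, the stress-induced cytosolic HSP90, read 10.73, 10.60, 11.24 and 11.04 in heterozygous and 10.39, 11.19, 11.20 and 10.89 in wild-type replicates 1 to 4. The groups overlapped fully, at a change of -0.01 (95% interval -0.45 to 0.42), whose sign turned under 6 of 16 alternatives. Further bright Hsp90aa1 probe sets were at -0.19 (95% interval -0.73 to 0.34) and -0.13 (-0.59 to 0.33), and dim ones at -0.11 and 0.08.

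Mitochondrial chaperones were close to their wild-type signals. Hspe1, the small subunit of the mitochondrial chaperonin, read 11.29, 11.25, 11.30 and 11.45 in heterozygous and 11.26, 11.28, 11.25 and 11.13 in wild-type replicates 1 to 4. It had the smallest p of the 5 genes, with a change of 0.09 ± 0.09 (SE; limma adjusted p = 0.825, exact permutation p = 0.114) and overlapping groups. Leaving out replicate 4 of either genotype gave 0.05 (heterozygous) and 0.06 (wild-type), and dropping probe sets that can bind several transcripts gave 0.03. Hspd1, the large subunit, was at -0.14 (95% interval -0.48 to 0.20), Hspa9, the mitochondrial HSP70, at 0.02 (-0.24 to 0.29), its J-domain partner Dnaja3 at -0.11 (-0.37 to 0.15) and Trap1, the mitochondrial HSP90, at 0.06 (-0.15 to 0.28). Over the 5 genes the intervals ran from -0.48 to 0.30, and 0 had an unadjusted p under 0.05 by limma, against 9 of the 36 members of cytosol and nucleus. The difference between the compartments was not tested. Dimmer probe sets of Dnaja3 and Hspa9 (mean signals 5.97 and 5.23) were at -0.47 and -0.42, at unadjusted limma p-values of 0.0385 and 0.0361.

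Small heat shock proteins, which hold unfolded clients without ATP, overlapped between the genotypes for all 4 genes measured. Hspb6 had the smallest p of the 4, with 6.83, 6.25, 7.01 and 6.52 in heterozygous and 6.82, 6.61, 7.01 and 7.32 in wild-type replicates 1 to 4. The groups overlapped, and heterozygous replicate 2 was lowest and wild-type replicate 4 highest. The change was -0.29 ± 0.19 (SE; limma adjusted p = 0.696, exact permutation p = 0.257), and -0.16 without heterozygous replicate 2 or without wild-type replicate 4. Heterozygous replicate 2 was also the lowest liver for Hspb1 (8.25, the others 8.79 to 9.31), whose change was -0.17. For Hspb8, a partner of Bag3 in the removal of misfolded proteins, that liver was the highest (9.84, the others 9.03 to 9.58), at a change of 0.02. Cryab was at -0.07. Of 7 skeletal and smooth muscle markers 5 were below 0, with changes from -0.17 to 0.12, among them Acta1 (-0.11) and Ckm (0.03). The part of muscle in these values was not tested.

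Apart from the HSP110 genes, no nucleotide exchange or BAG gene of the set had an unadjusted p under 0.05. Hspbp1, which opens HSP70, had the smallest p of these. It read 6.46, 6.56, 6.54 and 6.46 in heterozygous and 6.77, 6.54, 6.69 and 6.81 in wild-type replicates 1 to 4. Wild-type replicate 2 lay within the heterozygous range and the other wild-type livers above it. The change was -0.20 ± 0.10 (SE; limma adjusted p = 0.579, exact permutation p = 0.0571). Bag3, a stress-induced co-chaperone of selective autophagy, was at -0.24 (95% interval -0.56 to 0.08), Bag1 at -0.24, Bag5 at -0.17, Bag2 at 0.10 and Bag4 at 0.30. The brightest Bag4 probe set disagreed with its others, which were at -0.07 and -0.21.

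Hsf2, a heat shock factor, read 4.22, 4.03, 4.05 and 4.16 in heterozygous and 3.47, 3.74, 4.19 and 3.89 in wild-type replicates 1 to 4. Wild-type replicate 3 lay among the heterozygous livers and the signal was dim. The change was 0.29 ± 0.14 (SE; limma adjusted p = 0.587, exact permutation p = 0.114). Leaving out wild-type replicate 1 gave 0.18, leaving out wild-type replicate 3 gave 0.42, and averaging its probe sets gave 0.16. Serpinh1 read 5.57, 5.96, 5.86 and 5.92 in heterozygous and 5.75, 5.70, 6.14 and 6.00 in wild-type replicates 1 to 4. The groups overlapped, at a change of -0.07 ± 0.13 (SE; limma adjusted p = 0.913, exact permutation p = 0.600). It ranged from -0.14 to 0.012 with 1 array left out.

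The livers of a genotype did not all share 1 order. Wild-type replicate 2 was the highest of the 8 livers for 15 of the 42 genes (35.7%) and for 12.8% of all genes. Its largest leads were in Dnajc2 (8.84, the others 7.61 to 7.87), Hspa4 (10.21), Dnaja1 (11.79) and Dnajc7 (9.06), yet it was the lowest wild-type liver for Hspa1b and Hspa1a. Without it, 8 genes were lower at an unadjusted p under 0.05, of which 7 were among the 9. Heterozygous replicate 1 was the lowest liver for 12 of the 42 genes (28.6%) and for 12.1% of all genes, and without it 7 of the 9 stayed under 0.05. Without heterozygous replicate 2, the array that stood apart, 10 genes were lower, 8 of them among the 9. Wild-type replicates 1 and 2 averaged above replicates 3 and 4 in Fkbp4 (by 0.43), Hspa14 (0.35), Stip1 (0.32) and Dnaja4 (0.21), and below them in Hspa1b (-0.82) and Hspa1a (-0.39). Dnajb1, Hspa8 and Hsph1 showed little of this split (0.01, 0.01 and 0.06). The genes were thus not all high in the same wild-type livers.

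**Figure D4:**
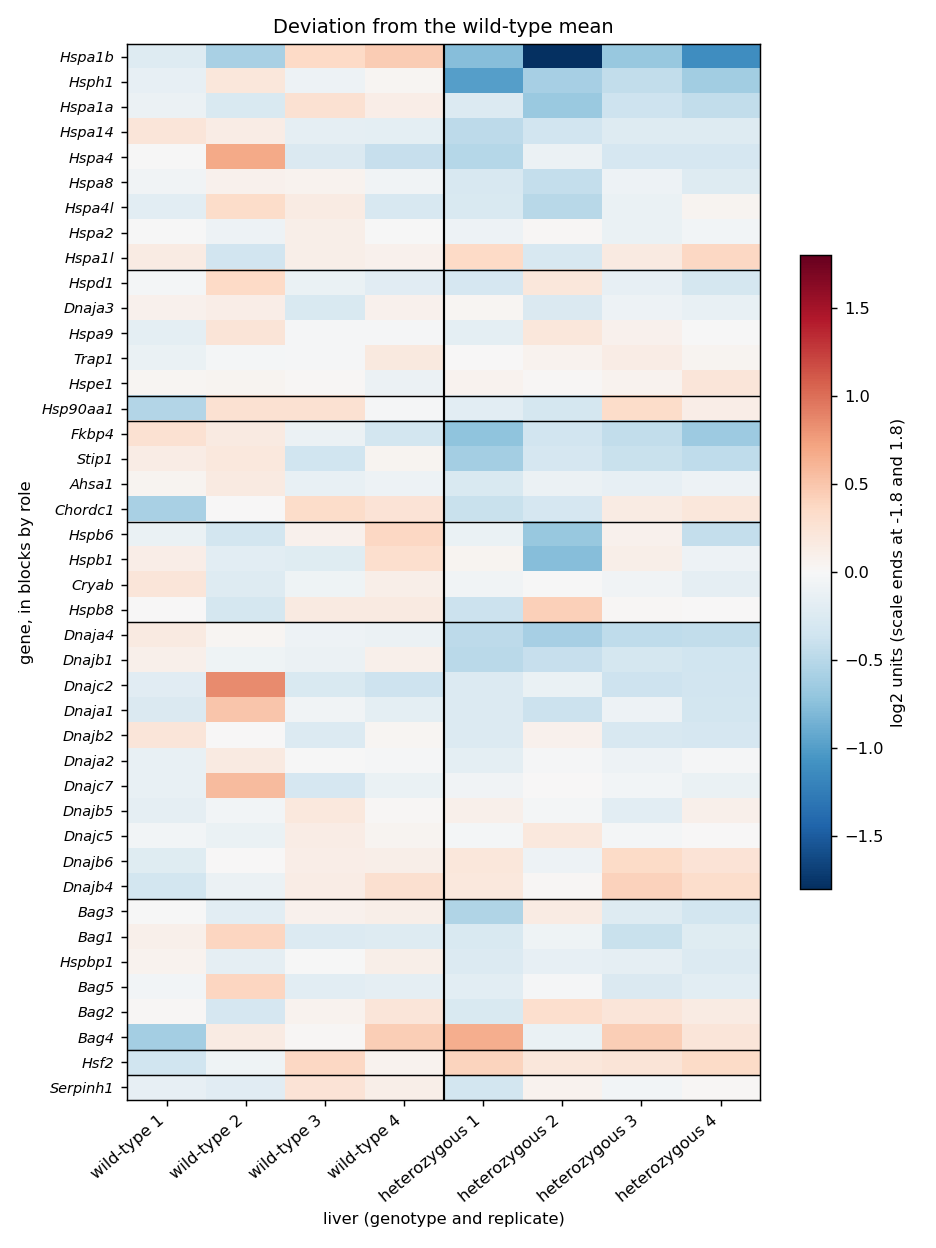
Deviation of each liver from the wild-type mean (colour, log2 units) for the 42 chaperone genes, in blocks by role and ordered by change within a block; the 4 wild-type livers are left of the line. Rows below the wild-type mean (blue) in every heterozygous column include the 9 genes with an unadjusted p under 0.05, faintly for Hspa8. They also include others, such as Hspbp1, Hspa4 and Bag1. Wild-type replicate 2 is red for Hspa4, Dnaja1, Dnajc2 and Dnajc7.

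Further probe sets were read beside the representative ones. Of the 104 probe sets 74 were below 0, 19 were lower at an unadjusted p under 0.05 and 1 was higher, where limma over all 45037 probe sets listed 3.85% as lower and 4.56% as higher. None passed the adjusted threshold, at which limma called 0.0355% of all probe sets, and the smallest adjusted p was 0.127, of an Hspa1b probe set. The 9 genes had 13 further probe sets, of which 10 were below 0 and 6 lower at an unadjusted p under 0.05. These genes were picked for lower signal in the same livers, so their further probe sets are no separate test. The 1 probe set on the higher side belonged to Dnaja2 (0.59; mean signal 4.99), whose brighter probe sets were at -0.08, -0.12 and 0.10. A second probe set of Hspa4 was at -0.40 without overlap, beside -0.30 for the brightest.

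**Figure D5:**
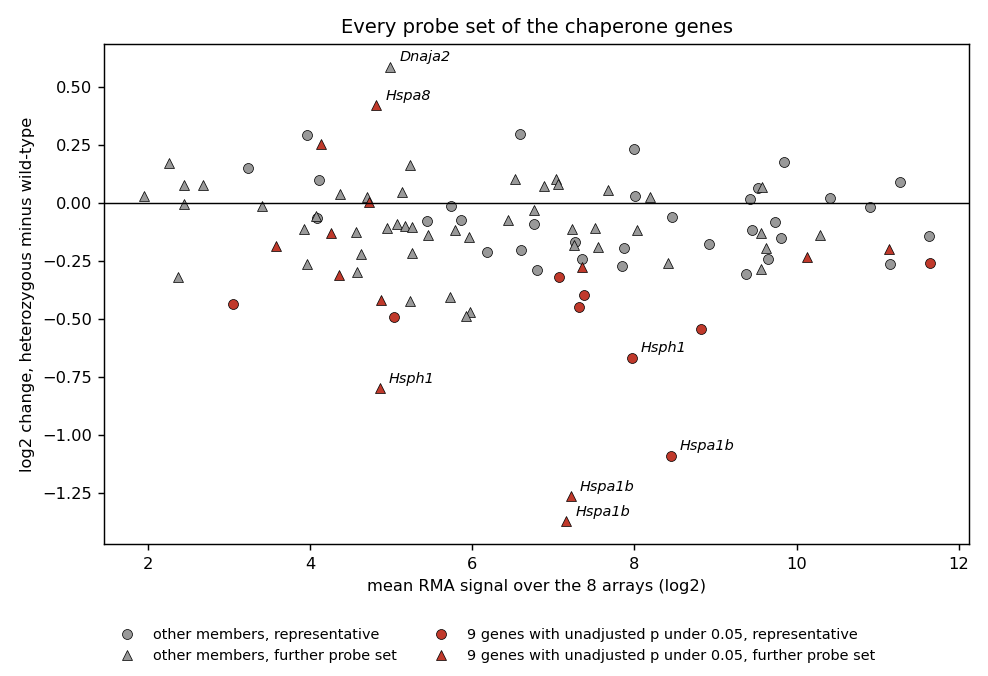
Log2 change (vertical axis, heterozygous minus wild-type) against mean RMA signal over the 8 arrays (horizontal axis) for the 104 probe sets of the chaperone genes; circles are the representative probe sets. The 3 Hspa1b probe sets lie lowest, from -1.37 to -1.09, and the highest points, of Dnaja2 (0.59) and Hspa8 (0.42), are dim probe sets with mean signals of 4.99 and 4.82.

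Other genes of protein folding were taken from lists written with earlier results known. By limma, 4.74% of all genes were lower and 4.40% higher at an unadjusted p under 0.05. Without overlap, 2.70% of all genes were lower and 1.95% higher. Of the cytosolic chaperonin and prefoldin subunits, which fold actin and tubulin, 0 of 14 had an unadjusted p under 0.05 by limma (median -0.01), with Pfdn6 at -0.25. Of 14 further HSP90 partners 13 were below 0 (median -0.15) and 0 had an unadjusted p under 0.05, with Ruvbl1 at -0.38, Cdc37, which delivers kinases to HSP90, at -0.24 and Unc45a, a myosin chaperone, at -0.14. Of 16 other HSP70 and J-domain genes 1 was lower at that level, Dnajb12 (-0.37). Among 9 further mitochondrial folding genes Clpx, a subunit of a mitochondrial protease, was at -0.87 (adjusted p = 0.110) and Grpel2, a nucleotide exchange factor for Hspa9, at 0.51 (adjusted p = 0.336), each without overlap. The other small heat shock genes had 1 of 6 higher at an unadjusted p under 0.05, Hspb11 (0.42), and the 6 measured heat shock factor and stress-inducible genes none, with Zfand2a, a known target of heat shock factors, at -0.28 and Hmox1 at 0.51.

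Chaperones of the endoplasmic reticulum included the 1 folding gene on these lists that passed. Dnajb9, a J-domain partner of the reticulum's HSP70, fell by 0.93 (SE 0.13; limma adjusted p = 0.0448). Of the 15 genes 5 were lower at an unadjusted p under 0.05 and 0 higher (median -0.14), where all genes gave 4.74%, 4.40% and a median of -0.02, the others being Manf (-0.66), Creld2 (-0.68), Hspa5, the HSP70 of the reticulum (-0.61), and Dnajb11 (-0.43).

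Of 6 clock genes of the Dbp and Per3 set 4 were higher at an unadjusted p under 0.05 by limma (median 0.83), as were 4.40% of all genes. Of 5 genes of the Arntl set 4 were lower at that level (median -0.89), as were 4.74% of all genes. In both sets 0 passed the adjusted threshold. Some immune cell markers also had an unadjusted p under 0.05 by limma, as did 9.14% of all genes. A clock score, the mean of 6 genes of the Dbp and Per3 set minus that of 5 genes of the Arntl set, was 3.03, 2.95, 2.98 and 1.77 in heterozygous and 0.546, 1.25, 0.836 and 1.58 in wild-type replicates 1 to 4. The genotypes did not overlap in this score, and its part in the chaperone values was not tested. The cold-induced Cirbp was at 0.33 (limma adjusted p = 0.728). Of 9 macrophage markers 7 were above 0 and 3 were higher at an unadjusted p under 0.05, as were 4.40% of all genes. The list means were 8.35 to 8.92 in heterozygous and 8.22 to 8.46 in wild-type liver. The 4 measured neutrophil and lymphocyte markers were all above 0 (means 5.21 to 6.53 and 5.11 to 5.34), with Ptprc at 0.75 (adjusted p = 0.420). The part of these cells in the chaperone values was not tested. Hepatocyte markers lay between 0.01 and 0.09. Endothelial, stellate, bile duct, muscle, adipocyte and red cell lists had 0 genes with an unadjusted p under 0.05 by limma.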

How the data were processed

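Liver RNA of 4 heterozygous and 4 wild-type mice was isolated with TRIzol and biotin-labelled, per the labels' protocols. The authors deposited log2 signals per probe set, made with RMA per the submitters' processing notes; its version and settings, and a genome build, are not stated in the sources used. That scale was read from the values (1.64 to 14.72). No detection calls were used, RMA compresses dim differences, and the number of arrays limits precision.

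The 64 control probe sets were left out. The platform annotation gave 1 symbol for 34945 of 45037 probe sets, several for 932 and none for 9160. Genotype was the sole term in limma 3.58.1 (lmFit, eBayes, two-sided; R 4.3.3), with Benjamini-Hochberg adjustment over all 18193 genes or, where stated, all probe sets (threshold 0.05). Single genes were also compared with an exact two-sided permutation test over 70 assignments. The limma step was tested on simulated data. Full values are given for members with an unadjusted p under 0.05 and for the member of smallest p in each role; of other lists up to 3 genes of smallest p are named, and further genes named beside them were chosen after their values were seen. Members and lists were chosen with earlier results of these data known. Alternatives are given in the closing section. The start windows for Hspa8, Hspa9, Hsp90aa1, Hsp90ab1, Cryab, Dnajc2, Dnajc5, Bag4 and Hsf1 were not used here.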

Additional observations from a re-analysis of the deposited data

Results flagged for a closer look

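In 4 of 84 groups of 4 livers (42 genes in 2 genotypes), 1 liver lay far from the other 3 by Dixon's criterion at 95%, which chance gives in about 1 group in 20. Dnajc2 read 8.84 in wild-type replicate 2 (the other wild-type livers 7.61 to 7.79). Dnaja3 read 9.23 in wild-type replicate 3 (the others 9.59 to 9.63). Hspa1l read 2.81 in wild-type replicate 2 (the others 3.24 to 3.31). Dnajb2 read 8.04 in heterozygous replicate 2 (the others 7.66 to 7.72), and without that liver Dnajb2 was lower at an unadjusted p under 0.05.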

How the results depend on the processing

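No chaperone gene passed an adjusted p of 0.05 under any of the 16 alternative fits, nor 0.1 in the fit as reported. The count of chaperone genes lower at an unadjusted p under 0.05 was 7 to 10 with 1 array left out and 6 to 11 otherwise, against 3.08 to 6.30% of all genes, and the median change stayed between -0.19 and -0.09. The count on the higher side was 0 to 1 with 1 array left out (1 with heterozygous replicate 2 or either of wild-type replicates 3 and 4 left out) and 0 otherwise. Genes without overlap on the lower side numbered 4 when all probe sets of a gene were averaged. Without probe sets that can bind several transcripts they were 4 of 38. With 1 array left out they numbered 7 to 11 (11 without heterozygous replicate 2). Fewer livers separate more easily, so the counts with 1 array left out cannot be set against that of all 8 arrays. The share over all genes was 2.70% in the fit as reported. It was not counted in the other fits, so their counts have no share to stand beside. With probe sets that can bind several transcripts left out, Hspa8 was at 0.42 and Fkbp4 at -0.13. Hsph1 had no probe set left, as its probe sets are all marked _a_at, which can mean several transcripts of the same gene. Hsp90aa1 turned to 0.018 with array weights and 0.016 with renewed quantile normalisation, and ranged from -0.19 to 0.085 with 1 array left out (above 0 for heterozygous replicates 1 and 2 and wild-type replicates 2 and 3). Serpinh1 ranged from -0.14 to 0.012 (above 0 for heterozygous replicate 1 and wild-type replicate 3). Over all genes 4 were called with the mean of probe sets, 2 with dim genes left out, and 3 to 20 with 1 array left out (3 for heterozygous replicate 1; 5, 4, 5 and 20 for wild-type replicates 1 to 4). The cause of these shifts was not tested. The Mtap call was lost in 6 of the 8 fits with 1 array left out (adjusted p from 0.0451 to 0.121 over the 8; kept without heterozygous replicate 2 or wild-type replicate 4) and with dim genes left out (0.0589). Whether the replicate numbers pair the livers is not known, as their meaning is not given here. Deviations of same-numbered livers correlated at -0.10, 0.15, 0.03 and 0.14, and those of other pairs at -0.30 to 0.21. These values cannot decide the question. With the replicate number as a block, 9 chaperone genes were lower, the same 9 as without it, and 0 passed the adjusted threshold. The adjusted p of Mtap was 0.112 with the block.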
